A study of Sus scrofa with 20 samples.

Results

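The cytosolic ribosomal protein genes were followed in peripheral blood mononuclear cells (PBMC) of weaned piglets fed diets with low (L), medium (M) or high (H) contents of calcium and phosphorus. The genes were taken from the symbols of the array annotation that begin with RPL or RPS and a number, or are RPLP0 to RPLP2 or RPSA, without the S6 kinases. This gave 64 of the 13755 gene symbols on the array, carried by 208 probe sets. The probe set of highest mean over all arrays stood for each gene. One of the symbols, RPS19BP1, names a protein that binds RPS19 and is not itself part of the ribosome. RPS4 is an older symbol of RPS4X, so the symbols RPS4 and RPS4X belong to a single gene read by separate probe sets.

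The profiles came from 6 piglets on the L diet, 7 on the M diet and 7 on the H diet, with 1 array per animal. Females numbered 3 in L, 4 in M and 3 in H. All animals were 63 days old, and the males were castrated. The study reported that H piglets weighed less and ate less than the other piglets by the end of the trial. It also reported lower serum zinc and the skin condition parakeratosis in the H group. These states came with the H diet, and their part in the differences between the diets was not tested. Labels name neither pen nor litter, although the piglets of the study included littermates, so animals entered every test as independent. PBMC are the lymphocytes and monocytes that a density gradient separates from other blood cells. RNA of each animal was hybridized to an Affymetrix pig array. The values are on the log2 scale after robust multi-array averaging (RMA), so a difference of group means is a log2 fold change. The differences given are estimates of the linear model limma, adjusted for sex, and can depart slightly from those of the group means. Exact permutation tests used the values without this adjustment. T cell and B cell markers were measured as the label PBMC implies: CD3E averaged 10.01 and MS4A1 11.02 over all arrays. Markers of erythroid cells (HBB at 13.43) and neutrophils (CXCR2 at 10.10) were measured as well.

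Ribosomal proteins assemble with ribosomal RNA into the large and the small subunit of the ribosome, which join on an mRNA to make protein. Their mRNAs begin with a tract of pyrimidines, the TOP motif, through which the kinase mTORC1 sets how strongly they are translated. In blood, resting lymphocytes are known for devoting a large share of their mRNA to ribosomal proteins.

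Of the 64 genes, 56 passed the filter on low values, which kept a probe set above the median of its array on at least 16 of 20 arrays. The other 8 were RPL10, RPL11, RPL18, RPL29, RPL36A, RPS14, RPS20 and RPS4X. Without the filter, the log2 differences H minus L of these 8 had a median of 0.03, and 4 of them were below 0. The probe set of RPL11, whose protein joins RPL5 and the 5S RNA, averaged 1.80, below the level of 2.84 that the background controls had in the H group. Its level was thus not above background. Of the 56 genes, 13 were read by probe sets with the suffix s, which match several transcripts, among them RPS7, RPS27A and RPL34. Another 3 (RPL17, RPL10A and RPSA) were read by probe sets with the suffix x, which hold probes that can cross-hybridize.

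Ribosomal protein transcripts averaged lower in animals of the H group than in animals of the L group for 55 of the 56 genes. Their median log2 difference H minus L was -0.33, against -0.02 over all 22127 probe sets tested, of which 54.1% were below 0. The differences ran between -0.64 for RPS27A and 0.02 for RPS15. None of them was called, however. A gene was called in limma where its unadjusted p lay under 0.01 and its Storey q under 0.21, which 6 probe sets reached (0.0271% of those tested). The lowest q of a ribosomal protein gene was 0.43, and the lowest Benjamini-Hochberg adjusted p of limma was 0.46. At an unadjusted p under 0.01, 10 of the 56 genes were lower in the H group and 0 were higher, while 0.841% of all probe sets were lower and 1.25% were higher at this level. At an unadjusted p under 0.05, 32 of the 56 were lower, against 4.05% of all probe sets. These genes shared animals, arrays and much of their variation, so the counts do not stand for independent observations.

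**Figure D1:**
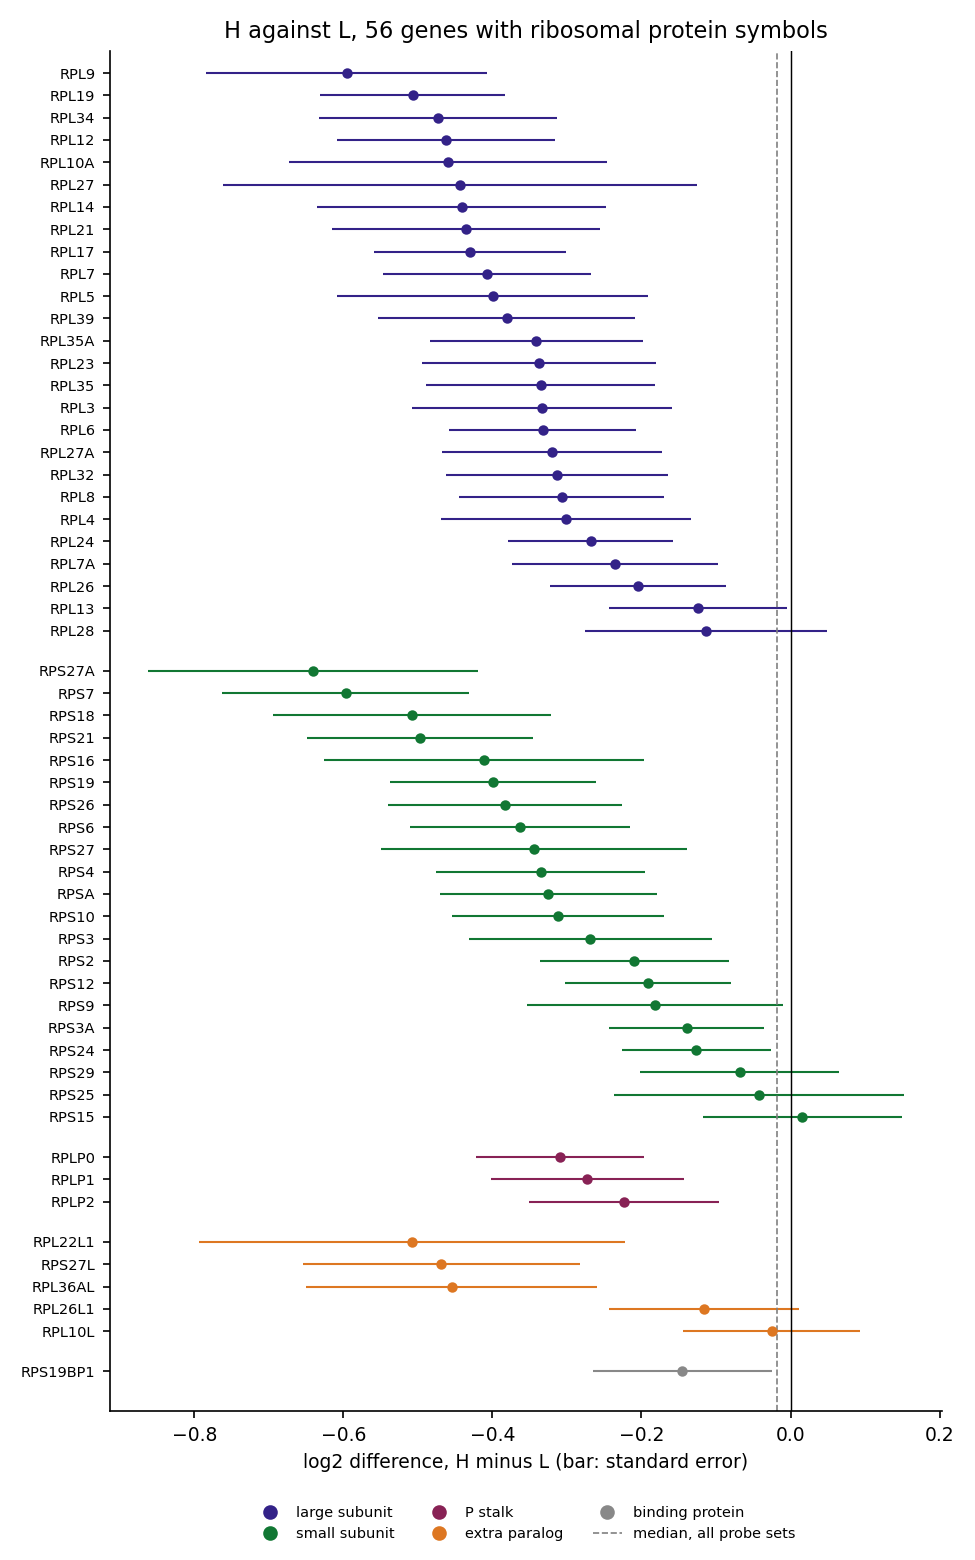
Log2 difference H minus L with its standard error for the 56 genes, grouped by subunit, P stalk, extra paralogs and the RPS19 binding protein. All points but that of RPS15 lie left of 0, and the dashed line marks the median of all probe sets at -0.02.

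The large subunit holds the peptidyl transferase centre, which is made of RNA, and the tunnel through which the new protein leaves. All 26 measured genes of large subunit proteins had a log2 difference H minus L below 0, with a median of -0.34, and 6 were lower at an unadjusted p under 0.01. The RMA values of RPL19 were 7.20, 7.42 and 7.65 in the H group (lowest, median and highest of 7 animals) and 7.63, 7.92 and 8.21 in the L group (6 animals). RPL19 reaches across to the small subunit as part of a bridge between the subunits. The ranges overlapped only between the highest H animal and the lowest L animal. The difference was -0.51 (SE 0.12), a ratio of H to L of 0.70, with a limma q of 0.43 and a p of 0.00175 in the two-sided exact permutation test of the 13 animals. The symbol RPL19 stood on 74 probe sets of the array with means between 1.31 and 7.64, while no other of the 64 symbols stood on more than 8. The annotation of most of these probe sets is therefore doubtful, and whether each one reads RPL19 was not tested. Of the other 20 that passed the filter, the next in level (7.34) had a difference of -0.08 (SE 0.18), and the differences ran from -0.90 to 0.80.

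RPL12 forms the base on which the stalk of the large subunit stands. The RMA values of RPL12 were 9.76, 10.22 and 10.41 in the H group (lowest, median and highest of 7 animals) and 10.48, 10.60 and 10.81 in the L group (6 animals). All H animals thus lay below all L animals. The difference was -0.46 (SE 0.15), with a limma q of 0.43 and an exact permutation p of 0.00117. RPL7, an RNA-binding protein of the large subunit, was the other gene of this subunit without overlap. RPL7 ran over 7.62, 7.96 and 8.22 in the H animals, against 8.22, 8.43 and 8.61 in the L animals, where the highest H animal (8.219) lay just below the lowest L animal (8.222). Its difference was -0.41 (SE 0.14) (exact permutation p = 0.00233, limma q = 0.43). Together with RPS7 of the small subunit, 3 of the 56 genes had every H animal below every L animal, and 0 had every H animal above. Over all probe sets this separation was found in 0.131%.

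RPL9 had the lowest difference of the large subunit, -0.60 (SE 0.19). RPL9 ran over 9.87, 10.50 and 11.02 in the H animals, against 10.76, 11.08 and 11.52 in the L animals, with an overlap of the ranges. The difference of RPL34 was -0.47 (SE 0.16). RPL34 ran over 10.88, 11.07 and 11.60 in the H animals, against 11.38, 11.51 and 12.001 in the L animals. A single H animal reached into the L range of RPL34. RPL17, a protein that lines the exit tunnel, had a difference of -0.43 (SE 0.13) and was read by a probe set that can cross-hybridize. Exact permutation p values were 0.00466 for RPL9, 0.00466 for RPL34 and 0.00291 for RPL17, each with a limma q of 0.43.

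**Figure D2:**
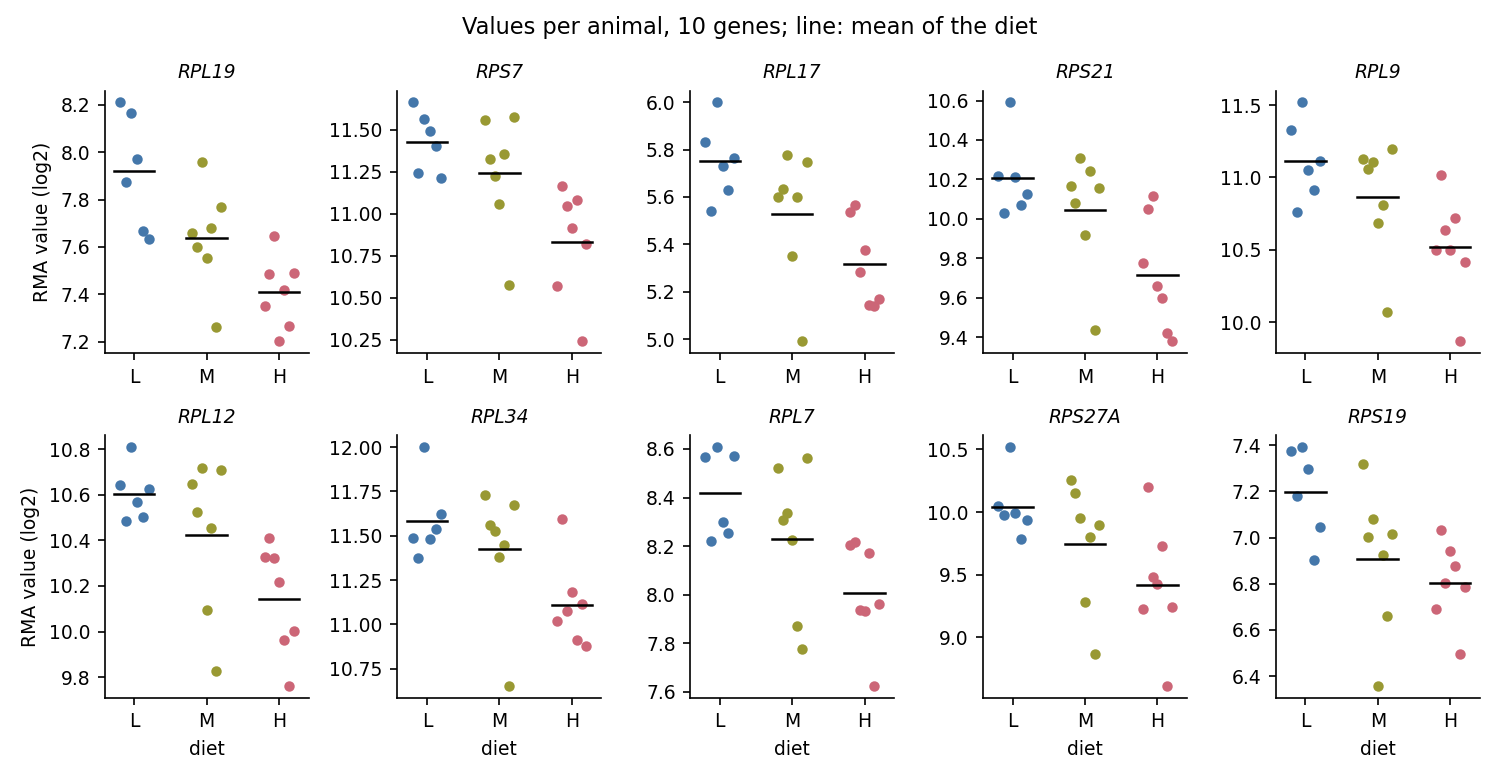
RMA values (log2) of each animal for the 10 genes that were lower in the H group at an unadjusted p under 0.01, with a line at the mean of each diet; every panel has its own axis. Animals of the H group lie below those of the L group without overlap for RPS7, RPL12 and RPL7 and with overlap for the other genes.

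Other proteins of the large subunit had smaller differences relative to their spread. RPL3, which sits near the peptidyl transferase centre, had 7.87 ± 0.37 in the H and 8.19 ± 0.26 in the L group (SD), a difference of -0.33 (SE 0.17), which was -0.19 without H animal 17. RPL5, the partner of RPL11 in the particle with the 5S RNA, had a difference of -0.40 (SE 0.21), which was -0.26 without that animal. RPL39, a small protein of the exit tunnel, had -0.38 (SE 0.17), and RPL24, which bridges the subunits, -0.27 (SE 0.11). RPL26, at the exit of the tunnel, had -0.20 (SE 0.12). Each of these 5 genes had a limma q between 0.49 and 0.62. RPL28 had the difference closest to 0 in the large subunit, -0.11 (SE 0.16), at a mean over all arrays of 4.60, close to the array medians of the filter. The 14 other genes of this subunit (RPL10A, RPL13, RPL14, RPL21, RPL23, RPL27, RPL27A, RPL32, RPL35, RPL35A, RPL4, RPL6, RPL7A and RPL8) had differences between -0.46 for RPL10A and -0.12 for RPL13, none of them at an unadjusted p under 0.01.

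The small subunit binds the mRNA and holds the decoding centre. Of 21 measured genes of small subunit proteins, 20 had a difference H minus L below 0, with a median of -0.32, and 4 were lower at an unadjusted p under 0.01. The RMA values of RPS7 were 10.24, 10.91 and 11.17 in the H group (lowest, median and highest of 7 animals) and 11.21, 11.45 and 11.66 in the L group (6 animals). RPS7, which also binds the p53 regulator MDM2, was lower in every H animal than in any L animal. The difference was -0.60 (SE 0.17), a ratio of 0.66, with a limma q of 0.43 and an exact permutation p of 0.00117. RPS27A is made as a fusion with ubiquitin and had the lowest difference of all 56 genes, -0.64 (SE 0.22). RPS27A ran over 8.61, 9.43 and 10.20 in the H animals, against 9.78, 9.99 and 10.52 in the L animals, so the groups overlapped through 1 H animal (exact permutation p = 0.0128).

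RPS21 had a difference of -0.50 (SE 0.15). RPS21 ran over 9.38, 9.66 and 10.12 in the H animals, against 10.03, 10.17 and 10.59 in the L animals. RPS19, the gene most often mutated in Diamond-Blackfan anaemia of man, had -0.40 (SE 0.14). RPS19 ran over 6.49, 6.80 and 7.03 in the H animals, against 6.90, 7.24 and 7.39 in the L animals. Both genes overlapped between the groups, with exact permutation p values of 0.00758 for RPS21 and 0.00408 for RPS19. RPS18, a protein of the head of the subunit, had -0.51 (SE 0.19) and RPS26, which lies at the exit of the mRNA, -0.38 (SE 0.16). RPS6, the substrate of the S6 kinases downstream of mTORC1, had 11.54 ± 0.31 in the H and 11.90 ± 0.15 in the L group (SD), a difference of -0.36 (SE 0.15). RPSA, also known as the precursor of a laminin receptor, had -0.32 (SE 0.15).

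A few genes of the small subunit had differences near 0. RPS15, near the decoding centre, had 4.51 ± 0.28 in the H and 4.48 ± 0.08 in the L group (SD), a difference of 0.02 (SE 0.13). RPS25, a protein of the head, had 5.68 ± 0.43 in the H and 5.73 ± 0.15 in the L group, a difference of -0.04 (SE 0.19). The intervals of about 2 SE around both values include differences of either sign. RPS25 ran over 5.13, 5.86 and 6.32 in the H animals, a wider range than 5.46, 5.77 and 5.87 in the L animals. RPS29 had -0.07 (SE 0.13) and RPS24 -0.13 (SE 0.10). The 8 other genes of this subunit (RPS10, RPS12, RPS16, RPS2, RPS3, RPS3A, RPS4 and RPS9) had differences between -0.41 for RPS16 and -0.14 for RPS3A, none of them at an unadjusted p under 0.01.

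The P stalk of the large subunit recruits the elongation factors and consists of RPLP0 with copies of RPLP1 and RPLP2. The differences H minus L were -0.31 (SE 0.11) for RPLP0, -0.27 (SE 0.13) for RPLP1 and -0.22 (SE 0.13) for RPLP2. RPLP0 ran over 10.85, 10.98 and 11.27 in the H animals, against 11.07, 11.35 and 11.54 in the L animals. The exact permutation p of RPLP0 was 0.0105 and its limma q 0.44.

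Of the extra paralogs, which stand in for or duplicate a core ribosomal protein, 5 were measured. RPL22L1, the paralog of RPL22, had a difference of -0.51 (SE 0.29) with the widest error of these genes. RPS27L, a p53 target, had -0.47 (SE 0.19), beside -0.34 (SE 0.21) for its partner RPS27. RPL36AL had -0.45 (SE 0.20), while its partner RPL36A did not pass the filter. RPL26L1 had -0.12 (SE 0.13), beside -0.20 (SE 0.12) for RPL26. RPL10L, a copy of RPL10 known from testis, had -0.03 (SE 0.12), with 6.87 ± 0.15 in the H and 6.89 ± 0.09 in the L group (SD). Paralogs and partners are similar in sequence, and probes can read both. The RPS19 binding protein RPS19BP1 had -0.14 (SE 0.12).

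Among the 23 genes with more than 1 probe set past the filter, the other 47 probe sets had a median difference H minus L of -0.16, and 37 of them were below 0. Of these, 20 carry the symbol RPL19, whose annotation is doubtful, and 12 of the 20 were below 0. The other 27 probe sets, of 22 genes, had a median of -0.27, and 25 were below 0. For RPLP0 the second probe set had -0.40 (SE 0.12), for RPS16 -0.60 (SE 0.23) and for RPL5 -0.27 (SE 0.16). The second probe set of RPL12, at a mean of 4.61, had -0.11 (SE 0.11), and that of RPS12 had -0.46 (SE 0.16). Those above 0 outside RPL19 were a probe set of RPL39 with 0.18 (SE 0.20) and one of RPS6 with 0.04 (SE 0.15). Their means were 4.89 and 4.60, and the other kept probe sets of both genes were below 0.

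The study listed 7 of the measured genes (RPL7, RPL12, RPL24, RPL34, RPS19, RPS26 and RPSA) under EIF2 signalling from these same animals, so they are no independent evidence of direction. It drew that list from genes past its own thresholds, in a model with litter and after a filter by presence calls, neither of which was used here. Of these 7, 4 were lower in the H group at an unadjusted p under 0.01. Of the 49 other genes, 6 were lower at this level, 48 were below 0, and their median was -0.33.

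The M group was compared with the L group and the H group with the M group in the same fit, and the 3 comparisons share arrays. In M against L, 55 of 56 genes were below 0, with a median of -0.18, against -0.01 over all probe sets. Without M animal 19 the median was -0.09, with 47 genes below 0. None was called, as for all probe sets (0%). At an unadjusted p under 0.01 the count was 0 (0.298% of all probe sets were lower), and at an unadjusted p under 0.05 it was 1, RPL19 (1.5% of all probe sets were lower). RPL19 had 7.64 ± 0.21 in the M and 7.92 ± 0.24 in the L group (SD), a difference of -0.29 (SE 0.12). RPS19 had -0.29 (SE 0.14) and RPL24 -0.22 (SE 0.11) in this comparison.

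In H against M, 51 of 56 genes were below 0, with a median of -0.14, against -0.003 over all probe sets. None was called by limma, where 0.0226% of all probe sets were. At an unadjusted p under 0.01 the count was 0 (0.936% of all probe sets were lower), and at an unadjusted p under 0.05 it was 2, RPS7 and RPS21 (3.01% of all probe sets were lower). RPS7 had 10.83 ± 0.33 in the H and 11.24 ± 0.34 in the M group (SD), a difference of -0.41 (SE 0.16). RPS21 had -0.34 (SE 0.15) and RPL34 -0.31 (SE 0.15). The mean of the M group lay between those of the L and H groups for 50 of the 56 genes and beyond the H mean for the other 6.

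Each gene was centred on its mean over all animals, and the 56 centred values were averaged in each animal. This mean was 0.17 ± 0.15 in the L group (SD, n = 6), 0.00 ± 0.27 in the M group (n = 7) and -0.15 ± 0.19 in the H group (n = 7). Values ran from -0.004 to 0.39 in L animals, from -0.44 to 0.29 in M animals and from -0.49 to 0.13 in H animals, so all groups overlapped. The lowest means were those of H animal 17 (-0.49) and M animal 19 (-0.44), and the highest was that of L animal 9 (0.39). The SD within the M group was larger than the distance between its mean and that of either other diet.

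**Figure D3:**
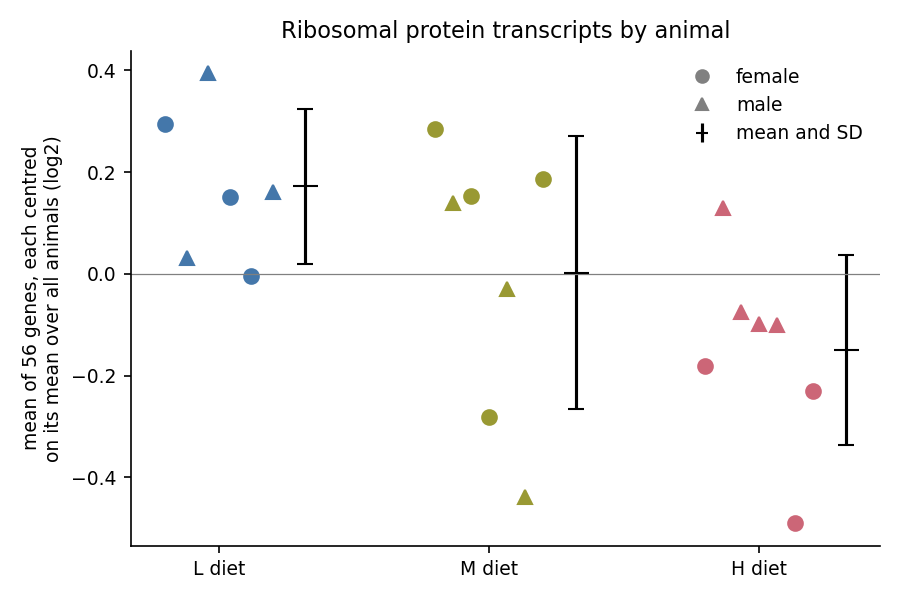
Mean of the 56 centred genes (log2) for each animal of the L, M and H diets, with circles for females, triangles for males, and the mean and SD of each diet. The L animals lie between -0.004 and 0.39 and the H animals between -0.49 and 0.13, with M animals on both sides.

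By sex, the mean of the 56 genes was -0.30 in the 3 H females and 0.15 in the 3 L females, without overlap. In males it was -0.04 in the 4 H animals and 0.20 in the 3 L animals, with overlap. Within females the median log2 difference H minus L was -0.46, with 55 of the 56 genes below 0, and within males -0.25, with 54 below 0. The test of this difference between the sexes in limma called 0 of the 56 genes and 0 of all probe sets, where 2 of the 56 genes and 1134 of 22127 probe sets had an unadjusted p under 0.05. In H against M the median was -0.39 within females and 0.07 within males, where 12 of 56 genes were below 0. Whether H against M differed between the sexes was not tested.

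Within diets, the genes varied together from animal to animal. The median correlation over the 1540 pairs of genes, after removal of the diet means, was 0.60 over 20 animals, and 89.2% of the pairs were above 0. The pairs share arrays and normalization. RPL21 (r = 0.96), RPL39 (0.95), RPL9 (0.95) and RPL10A (0.95) followed the mean of the other genes most closely. RPS24 (-0.12), RPS25 (-0.07) and RPS15 (-0.07) did not follow it, nor did RPL26 (0.04) and RPS19BP1 (0.04).

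**Figure D4:**
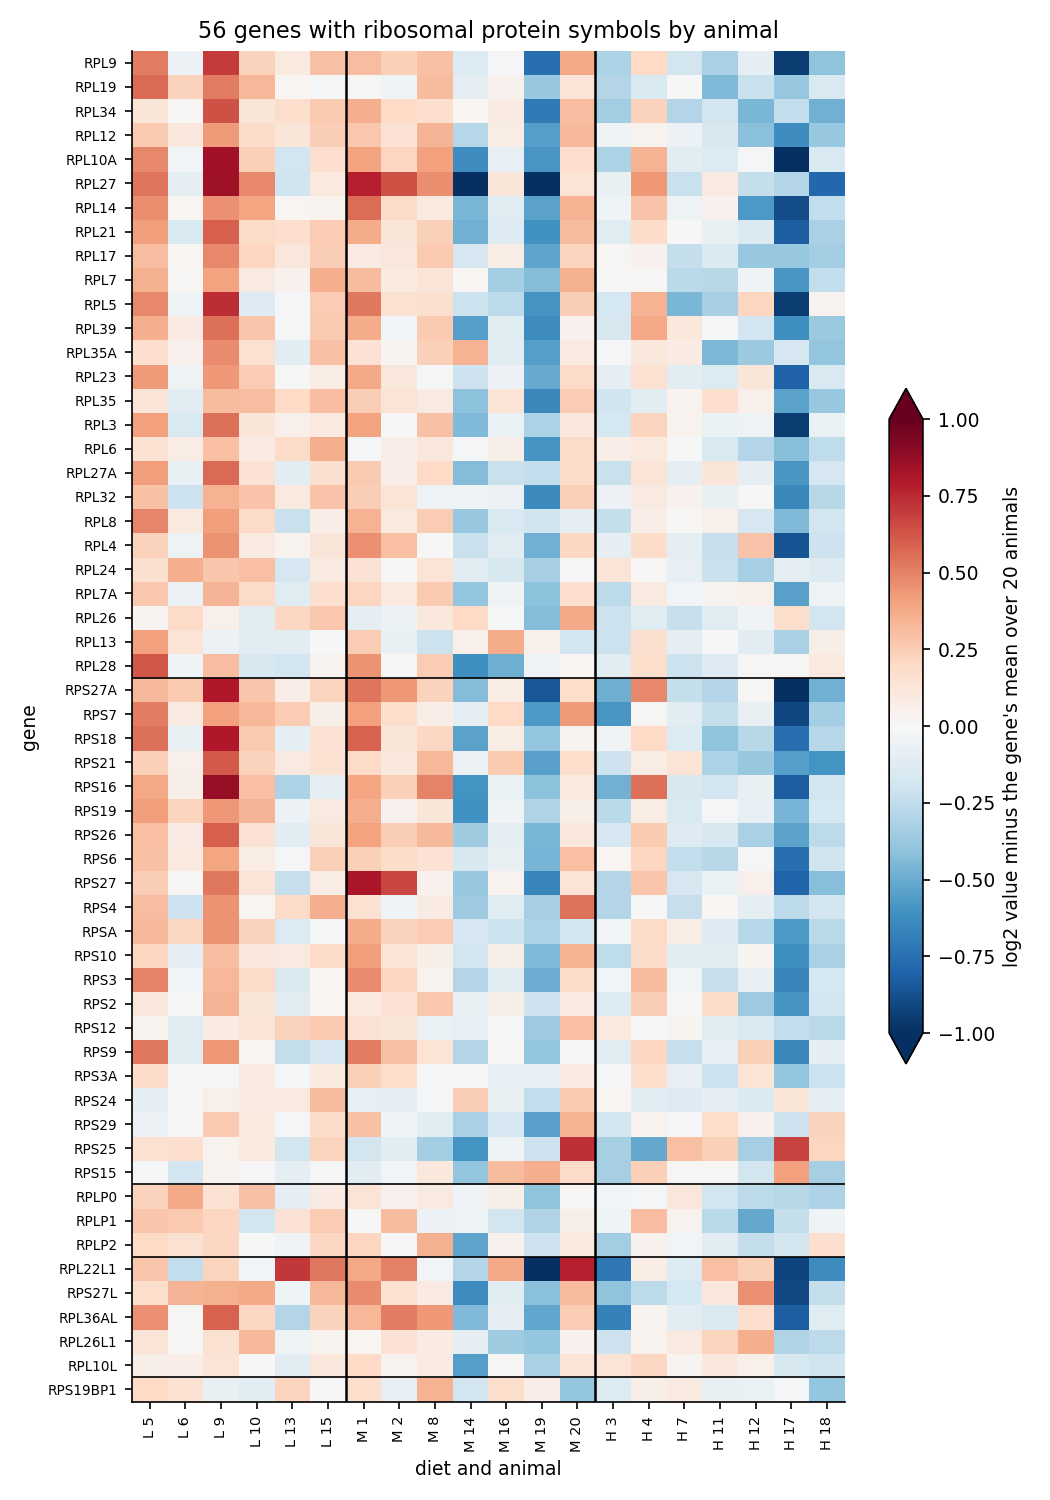
Log2 value minus the gene's mean over 20 animals, for the 56 genes (rows, by group) in each animal (columns, by diet and animal number); colours saturate at 1 in either direction. Most rows are low in H 17 and M 19 and high in L 9. The rows of RPS24, RPS25 and RPS15 are above their means in H 17, and that of RPS15 also in M 19.

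Other gene lists of the pathway were described in the same way. Of the translation factors with TOP mRNAs, 14 of 19 listed genes were measured, 12 of them had a difference H minus L below 0, and the median was -0.12. Of these, 1 was lower at an unadjusted p under 0.01, EIF3K, a subunit of the initiation factor eIF3 that is also on the EIF2 list of the study, with -0.42 (SE 0.14). Of the ribosome biogenesis factors, 33 of 36 were below 0 with a median of -0.10, and 0 were lower at an unadjusted p under 0.05. UTP15, a factor of the small subunit processome, had the smallest p and a difference of 0.39 (SE 0.16). Of the RNA polymerase I machinery, 10 of 13 were below 0 (median -0.12), and POLR1D, a subunit shared with polymerase III, had -0.26 (SE 0.13). Of mTORC1 and its outputs, 9 of 14 were below 0 (median -0.07), among them the translation repressor EIF4EBP2 with -0.47 (SE 0.18) and LARP1, which binds TOP mRNAs, with -0.34 (SE 0.14). Of the ribosomal stress and p53 target genes, 2 of 8 were below 0, with a median of 0.10. None of the lists held a called gene.

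Markers of blood cells differed by their means between the diets as well, and none of these differences was called. PBMC were read in bulk, so fewer cells of a type and less RNA per cell cannot be told apart. Of 14 measured T cell markers (18 listed), 13 were lower in the H than in the L group by their means, with a median difference of -0.36, and the centred mean of the list ran from -0.81 to 0.21 in the H and from -0.06 to 0.42 in the L animals. Of 10 B cell markers (12 listed), 10 were below 0 (median -0.29), with list means from -0.79 to 0.32 in the H and from -0.52 to 0.64 in the L animals. All 7 monocyte markers (12 listed) were above 0 (median 0.75), from -0.36 to 1.1 in the H and from -1.23 to 0.20 in the L animals. Of 7 neutrophil markers (15 listed), 6 were above 0 (median 0.80), from -0.32 to 1.06 in the H and from -0.88 to 0.56 in the L animals. All 8 erythroid markers (12 listed) were below 0 (median -0.40), from -1.66 to 0.21 in the H and from -0.74 to 0.66 in the L animals. NK cell markers had a median of -0.10 and platelet markers of 0.17. At an unadjusted p under 0.05, 4 T cell markers and 1 B cell marker were lower in the H than in the L group. At this level 4 monocyte and 4 neutrophil markers were higher, and no erythroid, NK cell or platelet marker differed. Over all 22127 probe sets, 897 were lower and 1000 higher. In H against M, all 8 NK cell markers (11 listed) were below 0 (median -0.50), with list means from -0.99 to 1.13 in the H and from -0.64 to 1.59 in the M animals. All 8 erythroid markers were below 0 as well (median -0.58, 3 of them at an unadjusted p under 0.05), with list means from -1.66 to 0.21 in the H and from -0.81 to 0.64 in the M animals. Of the T cell markers 11 of 14 were below 0 (median -0.24), and of the B cell markers 6 of 10 (median -0.07). All 7 monocyte markers were above 0 (median 0.54), as were 5 of 7 neutrophil markers (median 0.64) and 6 of 7 platelet markers (median 0.48). The part of the NK cell, erythroid and platelet markers in the difference H minus M was not tested.

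Over the 20 animals, the mean of the 56 genes had a correlation of 0.74 with the T cell list (Spearman 0.77, 0.65 without the 2 farthest animals), of 0.76 with the B cell list and of -0.61 with the neutrophil list. All these values share arrays and diets. With the T and B cell lists as covariates in limma, the median difference H minus L was -0.15 with 53 of 56 genes below 0, and 1 gene was lower at an unadjusted p under 0.01. With the neutrophil and monocyte lists as covariates these values were -0.19, 51 and 1. No count over all probe sets at an unadjusted p under 0.01 is given for either fit. In H against M the median was -0.08 with the T and B cell lists and -0.09 with the neutrophil and monocyte lists, in place of -0.14, each with 48 genes below 0. The marker lists include CSF3R, CXCR2, IL1R2 and CD247, which the study reported for H against L in these same animals. A covariate built in part on such genes can take up part of the diet difference, so these fits do not isolate cell composition. The part of cell composition in the difference was not tested beyond these fits.

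The mean of the translation factors followed the ribosomal protein genes with a correlation of 0.93 over 20 animals (Spearman 0.91). The other pathway lists had 0.87 (mTORC1 and its outputs), 0.78 (RNA polymerase I machinery), 0.76 (ribosome biogenesis factors) and 0.19 (ribosomal stress and p53 targets). The level of the 69 background controls of the array, which read no pig transcript, averaged 2.84 ± 0.17 for L, 2.90 ± 0.24 for M and 2.84 ± 0.12 for H animals (SD, n = 6, 7 and 7). It had a correlation of -0.54 with the mean of the 56 genes over all animals and of -0.76 within the M group. The 3 highest levels were those of M animal 19 (3.28), L animal 6 (3.16) and M animal 16 (3.12). After the data had been seen, the background level was also entered as a covariate. In H against L this called 20 of the 56 genes with the median of the controls and 4 with their mean. Over all probe sets it called 668 and 118. Without the 3 animals of highest level, 21 of the 56 genes were called in H against L and 11 in H against M, with medians of -0.41 and -0.30. In H against L, 868 of all probe sets were called in place of 6. For H against M no count over all probe sets is given for this fit, so the 11 calls cannot be set against the whole array. Array weights in limma called 16 of the 56 genes and 943 of all probe sets in H against L. The part of the background level in these differences was not tested further.

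**Figure D5:**
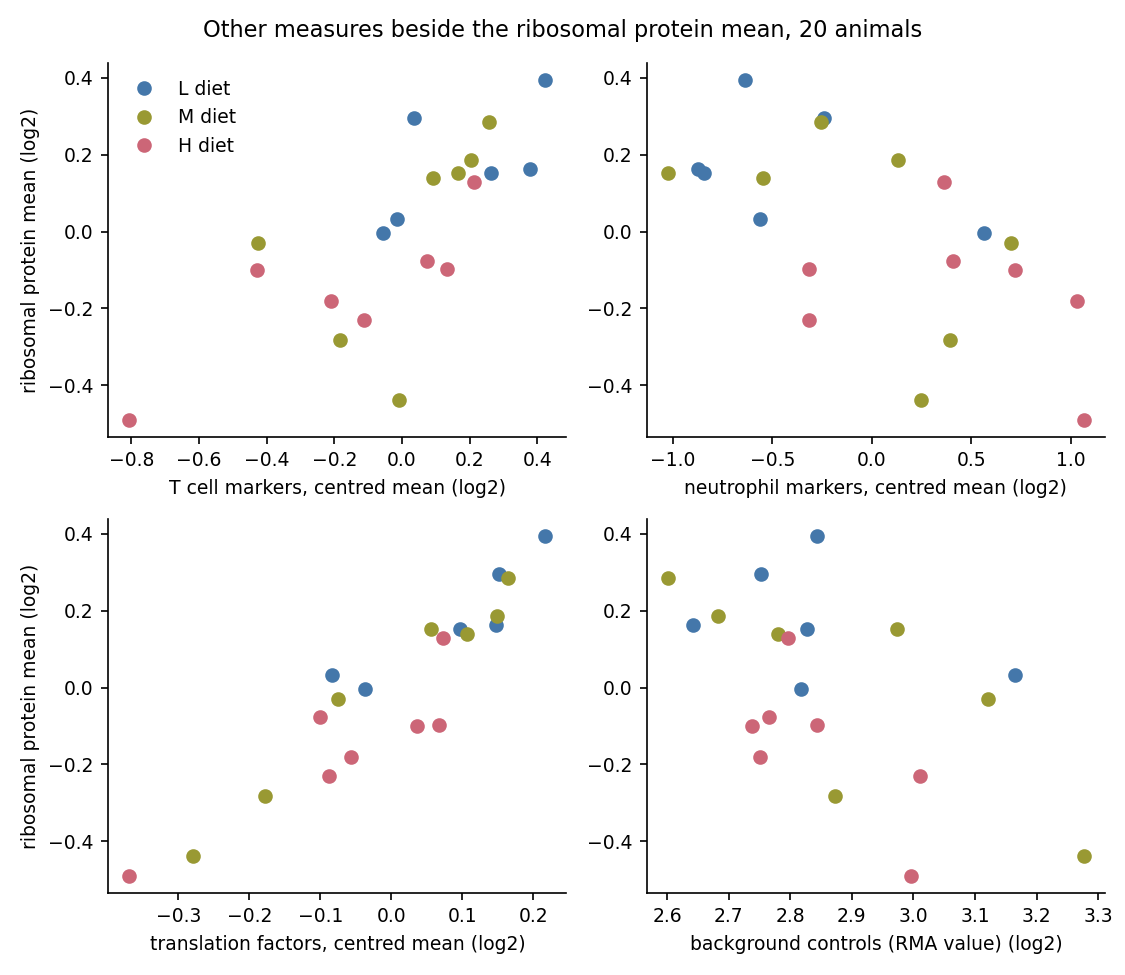
Mean of the 56 centred genes (log2, vertical axis) against the T cell markers, neutrophil markers and translation factors (centred list means, log2) and against the median level of the background controls (log2), for 20 animals coloured by diet. The mean is higher in animals with higher T cell and translation factor values and lower in those with higher neutrophil and background values.

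Single animals decided part of these counts. Without L animal 9, the number of genes lower in the H group at an unadjusted p under 0.01 was 2 in place of 10, and without L animal 5 it was 6. Without H animal 17 or H animal 18 it was 4. Without L animal 13, 3 genes were called, but so were 312 of all probe sets, in place of 6. Without H animal 18, 1 gene was called, beside 125 of all probe sets. Whichever animal was left out, the median difference H minus L stayed between -0.39 and -0.26, with 54 to 56 genes below 0. In H against M, leaving out M animal 19 gave 7 genes at an unadjusted p under 0.01 and a median of -0.24. Leaving out H animal 17 gave a median of -0.08 with 50 genes below 0. For the counts at an unadjusted p under 0.01 without an animal, no count over all probe sets is given, so they cannot be set against the whole array.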

How the data were processed

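PBMC RNA of 20 piglets (6 L, 7 M, 7 H) was measured on 1-colour Affymetrix pig arrays. The deposited values are on the log2 scale: per the labels, GCOS 1.1.1 read the arrays, and the authors summarized the intensities by RMA, whose quantile step largely removes a change common to all transcripts. Probe sets above their array's median on at least 16 of 20 arrays were kept (22127 of 47722, after 123 control probe sets were left out). Symbols came from the platform annotation, where 26426 probe sets carried 1 symbol and 21419 none.

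The 3 diets entered 1 fit of limma 3.58.1 (R 4.3.3), with moderated variances and sex as a covariate. Litter, a factor of the study's methods, is not in the labels used here. Calls needed p under 0.01, unadjusted, and Storey q under 0.21. For single genes, H and L animals were set against each other in a two-sided exact permutation test (1716 splits of 13 animals, smallest possible p 0.000583). With so few arrays, precision is limited. The filter replaced the presence calls of the methods, which need probe intensities not used here.

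The genes, lists and tests were chosen with earlier results of these data known. Named genes were the 12 of smallest p in H against L, the 3 of smallest p in each other comparison, the 3 highest and 3 lowest differences, members with a role of their own, extra paralogs with their partners, the study's EIF2 list and genes of smallest p in each pathway list. Other genes given were chosen after their values were seen: RPL28, RPS29, RPS24, RPL21, RPL10A, RPL13, RPS16, RPS3A and RPS19BP1. Fits were tested on simulated data for H against L over 22127 probe sets. With no change, 5 false calls were made. Of 200 probe sets changed by a log2 value of 1, 88.5% were recovered with 43 false calls. Of 200 changed by 2, 99.5% were recovered with 42 false calls. The simulated noise was independent between probe sets, and both changes were larger than any difference of the 56 genes (-0.64 at the lowest). The recovery therefore does not measure how well differences of their size are found.

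Alternatives were other filters, no sex term, no moderation, trend and robust fits, array weights, centring, cyclic loess, Benjamini-Hochberg adjustment, L and H arrays alone, marker lists as covariates, averaging the probe sets of each gene, each sex alone and leaving out each animal. The background level of the arrays, as a covariate or for leaving out 3 arrays, was added after seeing the data. Figures were drawn with matplotlib 3.10.9 under Python 3.11.15.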

Additional observations from a re-analysis of the deposited data

Results flagged for a closer look

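Each diet of the 30 named genes and of 3 means over genes was searched for a highest or lowest animal far from the others by Dixon's criterion, in 99 groups, of which chance marks about 1 in 20. The criterion marked 8 groups. In the L group, animal 9 was highest for RPS21 (10.59, the next 10.21) and for RPS27A (10.52, the next 10.05), and animal 10 was lowest for RPLP1 (5.04, the next 5.37). In the M group, animal 19 was lowest for RPL34 (10.65, the next 11.38) and for RPLP0 (10.75, the next 11.12), and animal 20 was highest for RPS25 (6.37, the next 5.61). In the H group, animal 4 was highest for RPL34 (11.60, the next 11.18) and animal 17 lowest for RPL3 (7.07, the next 7.84).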

How the results depend on the processing

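The direction of the median difference H minus L held under every alternative run, while the count of calls did not. In H against L no gene was called, and the count called was 16 with array weights, where 943 of all probe sets were called too. The count of genes lower in H against L at an unadjusted p under 0.01, 10 as reported, was 16 with array weights, 17 with cyclic loess, 1 with the neutrophil and monocyte lists as covariates, 1 with the T and B cell lists and 0 in males alone. In H against M, 0 as reported, it was 3 with array weights, 1 with cyclic loess and 7 in females alone, where the median was -0.39. In males alone 12 genes were below 0 in H against M, in place of 51, and the median was 0.07. Leaving out each animal in turn gave 0 to 3 called and 2 to 14 lower genes in H against L, and 0 to 7 lower genes in H against M. The fit with 3 called was that without L animal 13, where 312 of all probe sets were called. For the counts at an unadjusted p under 0.01 in these alternatives, no count over all probe sets is given. These counts therefore cannot be set against the whole array.

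The background level was examined only after the data had been seen, and its effect depended on how it was summarized. With the median of the background controls as a covariate, 20 genes were called in H against L (20 at an unadjusted p under 0.01) and 7 were lower in H against M at this level. With their mean, the summary tried first, 4 were called (19 at an unadjusted p under 0.01) and 4 were lower in H against M. Without the 3 arrays of highest level, the same by either summary, 21 genes were called in H against L (21 at an unadjusted p under 0.01) and 11 in H against M (11). The 11 calls in H against M have no count over all probe sets beside them, nor have the counts at an unadjusted p under 0.01. Over all probe sets the called counts in H against L were 668 with the median, 118 with the mean and 868 without the 3 arrays, against 6 as reported. The cause was not tested.

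Of the 30 named genes only RPS15, RPL10L, RPS25 and RPL26L1, all with differences near 0, turned their direction in H against L. RPS15 was -0.0391 with array weights, -0.0598 with the neutrophil and monocyte lists, -0.033 with the T and B cell lists, -0.0454 in females and -0.0146 without the 3 arrays of highest background, and ran from -0.0806 to 0.0619 when an animal was left out. RPL10L was 0.00727 with array weights, 0.00148 with centred arrays, 0.00793 with cyclic loess, 0.0342 with the neutrophil and monocyte lists and 0.0723 with the T and B cell lists, and ran from -0.0553 to 0.00883 when an animal was left out. RPS25 was 0.017 with the neutrophil and monocyte lists and 0.161 in females, and ran from -0.157 to 0.0444. RPL26L1 was 0.0123 with the neutrophil and monocyte lists and 0.11 in males. No paired analysis was possible because animal numbers are not shared between the diets.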
